A study of Mus musculus with 12 samples.

Results

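Glycolysis and the genes induced by hypoxia were followed in mouse macrophages exposed to 3 small dicarboxylic acids. The 33 genes were chosen by symbol: 17 encode glycolytic enzymes, glucose or lactate transporters and their regulators, and 16 are other targets of the hypoxia-inducible factor HIF-1. All 33 were found among the 32285 genes of the table, and 31 had enough counts to be among the 14113 genes tested. The study asked about the immune effects of itaconate. The cells were bone marrow-derived macrophages, grown in culture from marrow precursors of mice with the genotype WT (wild type), and their poly(A) RNA was sequenced. The 4 groups held 3 libraries each and had the same genotype and cell type. The control was kept in medium (M), and the others received methylsuccinic acid (MetSA), itaconic acid (IA) or malonic acid (MA), each at 5 mM for 16 h. Neither the age of the mice nor the origin of the 3 replicates from separate animals is stated in the labels, so the p-values measure the spread between these libraries, which may be technical.

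Glycolysis breaks glucose down to pyruvate in the cytosol, and lactate dehydrogenase then turns pyruvate into lactate, which leaves the cell through monocarboxylate transporters. HIF-1 is a transcription factor made of an oxygen-regulated alpha subunit, encoded by Hif1a, and a constant partner, encoded by Arnt. In oxygen, prolyl hydroxylases mark the alpha subunit for destruction through the von Hippel-Lindau protein, and these enzymes use 2-oxoglutarate and are inhibited by succinate and related acids. In macrophages HIF-1 is known for raising glycolytic genes and for its part in inflammatory activation. Itaconic acid is made by activated macrophages and carries a methylene group, a carbon-carbon double bond, on the succinic acid backbone. Methylsuccinic acid carries a methyl group at that place instead and is saturated. Malonic acid, with a shorter backbone, is known as an inhibitor of succinate dehydrogenase.

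HIF-1 binds DNA at a core of 5 bases, ACGTG or GCGTG, and the windows upstream of the genes were searched for both on both strands (the reverse complements are CACGT and CACGC, and CACGTG counts on each strand). RefSeq promoter windows on GRCm38.p6 were matched for 31 of the 33 genes, leaving out Ndrg1 and Bnip3l. Within 250 bases before an annotated start, 27 of these 31 genes (87.1%) had at least 1 match in some window. The share was 41.5% among all 27025 genes with a RefSeq window. At least 2 matches in a window stood in 61.3% of the 31 genes, against 18.7% of those 27025. A gene with more windows has more places for a match. By window, 75.0% of the 48 windows of the set held a match, against 38.6% of all 32851 windows. A match describes the letters only. The 33 genes were picked as glycolytic genes and HIF-1 targets, and the 27025 genes include ones not tested here. The shares are therefore a description and not a test of the set. The windows of 4 genes are printed because these genes behaved differently across the 3 acids: Hk2 and P4ha1 were higher with every acid, Egln3 was higher with MA and MetSA, and Pdk1 was lower with IA and MA. None of the 4 windows holds an annotated exon, capitals mark the matches, and each is read 5′ to 3′ on the strand of its gene. The Hk2 window (gene ENSMUSG00000000628) lies at chr6:82774455-82774704 on the minus strand, with matches 226 and 52 bases before the start. The P4ha1 window (ENSMUSG00000019916) lies at chr10:59323046-59323295 on the plus strand, with matches at 163, 126 and 16 bases. The Egln3 window (ENSMUSG00000035105) lies at chr12:54203875-54204124 on the minus strand with 1 match at 229 bases, and that of Pdk1 (ENSMUSG00000006494, the first of 2 annotated starts) at chr2:71872974-71873223 on the plus strand with 1 match at 78 bases. The window of the second Pdk1 start held 0 matches and is not printed.
Hk2: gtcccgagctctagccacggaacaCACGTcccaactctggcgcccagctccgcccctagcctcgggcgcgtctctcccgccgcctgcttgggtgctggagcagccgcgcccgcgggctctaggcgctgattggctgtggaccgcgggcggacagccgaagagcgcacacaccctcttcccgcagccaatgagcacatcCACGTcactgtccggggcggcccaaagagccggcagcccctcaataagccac
P4ha1: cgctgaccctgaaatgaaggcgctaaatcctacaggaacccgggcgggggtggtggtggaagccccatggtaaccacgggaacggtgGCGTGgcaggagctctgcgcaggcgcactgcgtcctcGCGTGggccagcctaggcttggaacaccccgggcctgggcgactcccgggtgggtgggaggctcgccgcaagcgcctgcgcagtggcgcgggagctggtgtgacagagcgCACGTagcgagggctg
Egln3: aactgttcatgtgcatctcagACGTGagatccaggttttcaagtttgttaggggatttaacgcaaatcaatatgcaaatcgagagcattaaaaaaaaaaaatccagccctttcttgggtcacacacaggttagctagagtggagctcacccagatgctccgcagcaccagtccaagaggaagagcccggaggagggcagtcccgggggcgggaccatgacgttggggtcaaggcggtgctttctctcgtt
Pdk1: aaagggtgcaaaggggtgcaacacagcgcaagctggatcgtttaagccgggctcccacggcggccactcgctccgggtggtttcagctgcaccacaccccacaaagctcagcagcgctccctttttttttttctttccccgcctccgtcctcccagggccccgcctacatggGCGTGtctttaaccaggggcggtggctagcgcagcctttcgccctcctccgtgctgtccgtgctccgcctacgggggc

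The libraries held 46892488 to 54252486 counts. Summed levels of 10 macrophage markers were 25800 to 34300 CPM (counts scaled to a common library size, normalised by TMM) in every group, and lymphocyte markers summed to at most 0.773 CPM with Ncr1 at 0 in all 12 libraries. Of the 10 macrophage markers, 6 were called higher and 1 lower with IA, 2 and 3 with MA, and 7 and 1 with MetSA. The largest log2 change against M was that of Fcgr1 with IA (2.509) and MetSA (1.911), and that of Mrc1 with MA (-1.996). The sum does not show these single changes. Summed dendritic cell markers were higher with IA (7.22 to 9.3 CPM) and MetSA (3.68 to 5.6) than in M (1.98 to 3.42) and MA (2.85 to 3.65), and all 6 were detected. Among them Xcr1 stood at 0.161 to 0.267 CPM in M, 4.56 to 5.08 with IA, 0.317 to 0.551 with MA and 1.74 to 2.33 with MetSA, while Flt3, Zbtb46, Clec9a and Ccr7 were not called against M with any acid. Siglech was called higher with MA (adjusted p = 0.0132), a call lost without M replicate 2 or MA replicate 1 (0.0587 to 0.0657), and with IA (adjusted p = 0.0482), a call lost under most of the libraries left out, M replicates 1 or 2 and every IA and MA replicate among them (0.0531 to 0.189). Neutrophil markers summed to 56.5 to 101 CPM, with the 4 groups overlapping, stromal markers to 6.32 to 36.2 CPM, and erythroid and mast cell markers to 0.646 to 2.67 CPM, lowest with MA. The part of these cells in the results was not tested. In such bulk RNA, fewer cells of a type and less RNA per cell cannot be told apart. MetSA replicate 3 stood apart: on the third principal component (6.8% of the variance) it scored 32.7 where the other libraries lay between -21.7 and 10.6, and 1.28% of its counts were mitochondrial, against 0.759% and 0.833% in the other MetSA libraries. That share was 1.15% to 1.36% in M, at most 1.12% with MA and 0.673% to 0.811% with IA, so that every IA and MA library and the other 2 MetSA libraries lay below M. The part of this share in the results was not tested.

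Against M, the genes moved upward more often than downward with MA and MetSA, and in both directions with IA. A call means that the quasi-likelihood test of edgeR gave an adjusted p under 0.05, by the Benjamini-Hochberg method over all genes tested. With IA, 8 of the 31 tested genes were higher and 6 lower, where 35.2% of all genes were called (17.9% higher and 17.3% lower), so that 25.8% and 19.4% of the listed genes stood against those shares. With MA, 11 were higher and 3 lower, where 20.3% of all genes were called (10.1% higher and 10.1% lower). With MetSA, 15 were higher and 2 lower, where 21.2% of all genes were called (12.6% higher and 8.53% lower). The median log2 fold changes over the 31 genes were -0.0095 with IA, 0.15 with MA and 0.18 with MetSA, and those over all genes tested were -0.03, -0.02 and -0.01. The 3 comparisons share the M libraries. Scaling by total counts in place of TMM moved the median of all genes to -0.22 with IA and -0.13 with MetSA and turned the split with IA to 6 higher and 15 lower. Without M replicate 1, 1 gene was lower with MetSA in place of 2.

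**Figure D1:**
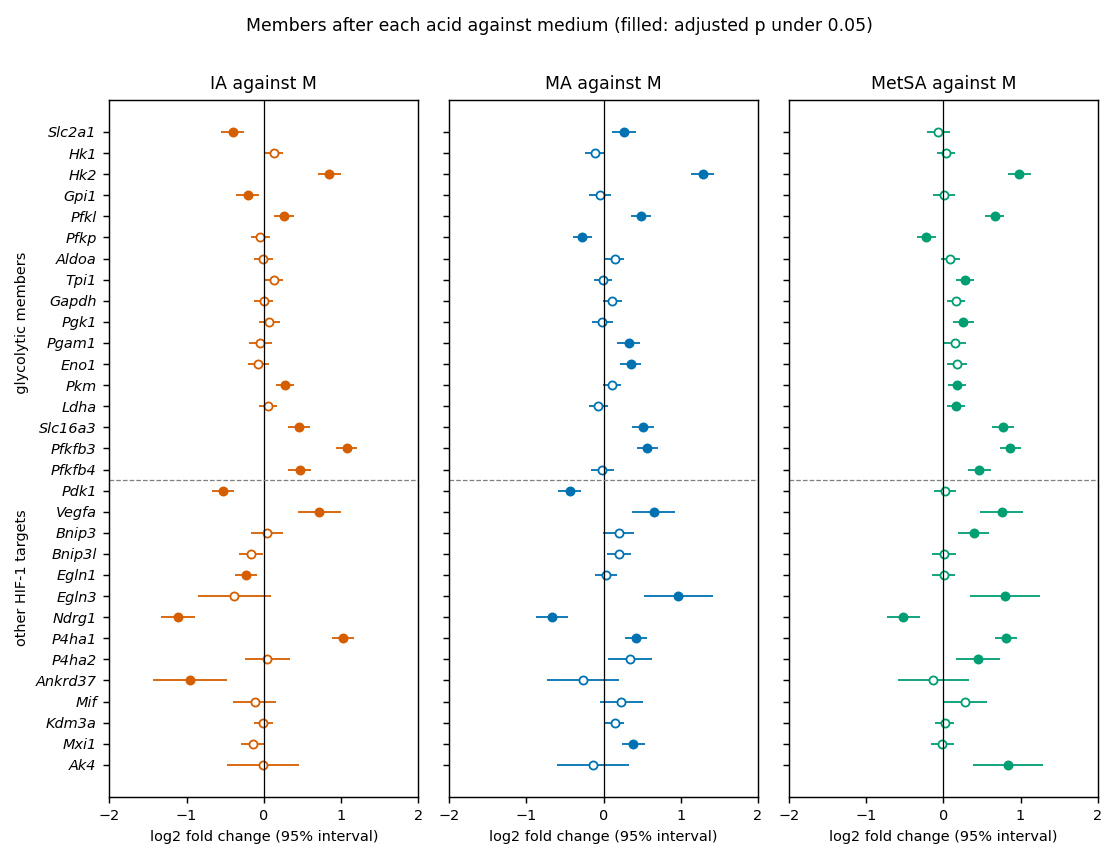
Log2 fold changes against medium (x axis) of the 31 tested genes (y axis) with IA, MA and MetSA, with 95% intervals from the edgeR fit and filled points for adjusted p under 0.05. Hk2, Pfkl, Slc16a3, Pfkfb3, Vegfa and P4ha1 lie to the right of 0 with filled points in all 3 panels, and Ndrg1 lies to the left in all 3.

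The glycolytic genes were then read apart from the other HIF-1 targets. Of the 17 glycolytic genes, 6 were higher and 2 lower with IA, 7 and 1 with MA, and 9 and 1 with MetSA, with median log2 fold changes of 0.07, 0.11 and 0.18. Of the 14 tested other targets, 2 were higher and 4 lower with IA, 4 and 2 with MA, and 6 and 1 with MetSA, with medians of -0.13, 0.20 and 0.15. In either direction, 47.1% of the glycolytic genes were called with IA, 47.1% with MA and 58.8% with MetSA. Of the other targets, 42.9%, 42.9% and 50.0% were called. The shares over all genes tested were 35.2%, 20.3% and 21.2%. With IA, 35.3% of glycolytic genes and 14.3% of other targets were higher, against 17.9% of all genes. Lower with IA were 11.8% and 28.6%, against 17.3%. Whether the 2 sets differ was not tested. Among glycolytic genes, the count lower with IA was 1 without M replicate 3, IA replicate 1 or IA replicate 3, and the count lower with MetSA was 0 without M replicate 1. With total counts, 7 glycolytic genes and 8 other targets were lower with IA.

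Slc2a1 encodes GLUT1, a glucose transporter. Slc2a1 stood at 39.3, 38.1 and 38.3 CPM in M, at 26.5, 31.4 and 29.4 with IA, at 44.0, 47.8 and 47.1 with MA, and at 34.6, 38.8 and 37.2 with MetSA. All 3 IA libraries lay below M and all 3 MA libraries above it, while MetSA overlapped M. The log2 fold change was -0.41 with IA (SE 0.07, adjusted p = 0.000219) and 0.26 with MA (SE 0.07, adjusted p = 0.0129), and it was -0.06 with MetSA (95% interval -0.22 to 0.09, adjusted p = 0.594). Without MA replicate 2 the rise with MA had an adjusted p of 0.0591.

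Hexokinases trap glucose in the cell as glucose 6-phosphate. Hk2, the inducible isoform, stood at 44.5, 47.1 and 45.4 CPM in M, at 78.1, 82.2 and 86.5 with IA, at 105, 113 and 116 with MA, and at 90.5, 99.2 and 81.3 with MetSA. Every library with an acid lay above every M library, and MA was the highest group. Hk2 rose by 0.85 with IA (log2, SE 0.07, adjusted p = 2.05e-08), 1.28 with MA (SE 0.07, adjusted p = 1.1e-10) and 0.98 with MetSA (SE 0.07, adjusted p = 7.84e-09). Hk1, the widely expressed isoform, was called in none of the 3 comparisons, with means of 114 ± 5.85 CPM in M, 124 ± 2.61 with IA, 105 ± 2.98 with MA and 116 ± 2.23 with MetSA (SD, n = 3). On the scale of CPM per kb of exon, the level of Hk1 was above that of Hk2 in M (13.3 and 7.65) and below it with MA (12.3 and 18.6), and the 2 levels were 14.6 and 13.8 with IA and 13.6 and 15.1 with MetSA. Without M replicate 1, Hk1 was called with IA (adjusted p = 0.0441).

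Gpi1 converts glucose 6-phosphate to fructose 6-phosphate. It was 409 ± 16.9 CPM in M and 354 ± 14.6 with IA, a fall of 0.21 on the log2 scale (SE 0.07, adjusted p = 0.0254), and 397 ± 4.46 with MA and 412 ± 47.6 with MetSA. The call with IA was lost without M replicate 3, IA replicate 1 or IA replicate 3, with adjusted p from 0.0915 to 0.11. The wide MetSA spread came from replicate 3 at 464 CPM, above 371 and 401.

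Phosphofructokinase makes the committed step, and its subunits moved differently. Pfkl, the liver-type subunit, stood at 56.4, 56.8 and 54.1 CPM in M, at 61.9, 71.6 and 66.5 with IA, at 77.5, 79.4 and 77.9 with MA, and at 89.0, 87.2 and 88.8 with MetSA. The 4 groups did not overlap, in the order M, IA, MA, MetSA. Pfkl rose by 0.26 with IA (log2, SE 0.06, adjusted p = 0.00255), 0.49 with MA (SE 0.06, adjusted p = 5.93e-06) and 0.66 with MetSA (SE 0.06, adjusted p = 1.4e-07), and the IA call was lost with total-count scaling. Pfkp, the platelet-type subunit, was 101 ± 3.69 CPM in M and 98.2 ± 3.09 with IA, and fell to 83.6 ± 4.61 with MA (log2 -0.28, SE 0.06, adjusted p = 0.00184) and 87.0 ± 1.49 with MetSA (log2 -0.22, SE 0.06, adjusted p = 0.0107). The Pfkp call with MetSA was lost without M replicate 1 (adjusted p = 0.0539), and 5.6% of its exon bases overlap Pitrm1 on the opposite strand, from which its reads cannot be told apart because the counting strand is not stated.

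Pfkfb3 and Pfkfb4 encode bifunctional enzymes that set the level of an activator of phosphofructokinase. Pfkfb3 stood at 39.6, 37.4 and 37.6 CPM in M, at 76.5, 84.0 and 80.3 with IA, at 58.7, 52.4 and 58.9 with MA, and at 71.4, 70.0 and 67.7 with MetSA. The 4 groups did not overlap, and here IA was the highest and MA the lowest of the acids. The rises were 1.07 with IA (log2, SE 0.06, adjusted p = 1.69e-10), 0.57 with MA (SE 0.06, adjusted p = 1.77e-06) and 0.87 with MetSA (SE 0.06, adjusted p = 9.04e-09). Pfkfb4 was 68.0 ± 3.21 CPM in M and rose to 93.8 ± 3.67 with IA (log2 0.47, SE 0.07, adjusted p = 3.39e-05) and 93.8 ± 5.31 with MetSA (log2 0.46, SE 0.07, adjusted p = 6.41e-05). With MA it was 67.1 ± 6.08 CPM, with a 95% interval of the log2 change from -0.17 to 0.13.

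**Figure D2:**
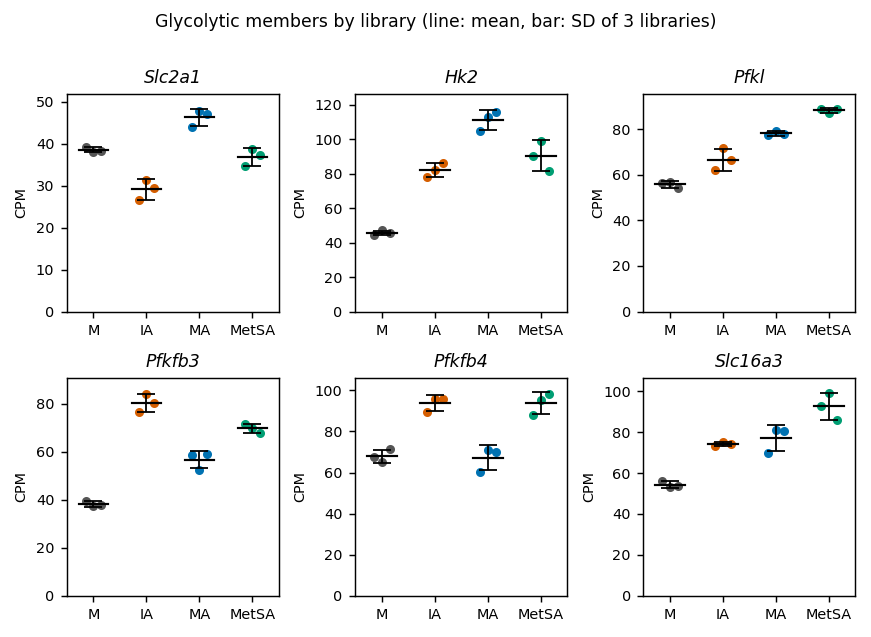
CPM (y axis, linear from 0) of 6 glycolytic genes in each of the 12 libraries by group (x axis), with the mean as a line and the SD as a bar. Hk2 is highest with MA, from 105 to 116 CPM, Pfkfb3 is highest with IA, from 76.5 to 84.0 CPM, and Pfkl and Slc16a3 are highest with MetSA.

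The enzymes from aldolase to pyruvate kinase are among the most abundant genes here and moved little. Aldoa, the aldolase that splits the sugar into trioses, led the set at 268 CPM per kb in M, followed by Pkm at 241 and Gapdh at 189. Aldoa was called with none of the acids, with means from 774 to 863 CPM over the 4 groups. A further gene identifier with the symbol Aldoa, with 7 to 26 counts a library, was left out. Tpi1, the triose isomerase, rose with MetSA from 279 ± 3.32 to 338 ± 17.1 CPM (log2 0.28, SE 0.06, adjusted p = 0.00117) and was not called with IA (0.13, 95% interval 0.01 to 0.24) or MA (-0.0025, -0.12 to 0.11). Gapdh, the next enzyme, was called with none of the acids, and its largest change was 0.16 with MetSA (adjusted p = 0.0512).

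Pgk1 and Pkm make the ATP of the pathway, and Pgam1 and Eno1 stand between them. Pgk1 rose with MetSA, from 269 ± 9.27 to 322 ± 23.5 CPM (log2 0.26, SE 0.06, adjusted p = 0.00599). Pgam1 rose with MA, from 118 ± 9.09 to 148 ± 10.1 CPM (0.33, SE 0.07, adjusted p = 0.00258), and so did Eno1, from 471 ± 13.5 to 601 ± 11.7 CPM (0.35, SE 0.06, adjusted p = 0.000506). Eno1 was not called with MetSA (0.18, adjusted p = 0.0582), but was without IA replicate 2, IA replicate 3 or MetSA replicate 1 (adjusted p from 0.0352 to 0.0484). Pkm rose with IA, from 1205 ± 53.1 to 1456 ± 35.2 CPM (0.27, SE 0.06, adjusted p = 0.000687), and with MetSA, to 1365 ± 32.2 CPM (0.18, SE 0.06, adjusted p = 0.0255). Its MetSA call was lost without M replicate 2, M replicate 3 or MetSA replicate 1 (adjusted p from 0.0555 to 0.104), and total-count scaling ended both Pkm calls and that of Pgk1. These genes share sequence with other annotated genes over part of their transcripts, 51.7% for Pgk1, 33.9% for Pgam1, 20.9% for Gapdh, 20.4% for Eno1 and 12.3% for Pkm, so their counts are uncertain where reads could be split.

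Ldha turns pyruvate into lactate, and Slc16a3, the transporter MCT4, exports it. Ldha was 429 ± 18.9 CPM in M and 481 ± 21.0 with MetSA (log2 0.17, SE 0.06, adjusted p = 0.0434), and was not called with IA or MA. That call was lost with total-count scaling and without any of M replicates 2 and 3, IA replicates 1 and 2, the 3 MA replicates or MetSA replicates 1 and 3 (adjusted p from 0.0516 to 0.145). Slc16a3 stood at 56.2, 53.0 and 53.5 CPM in M, at 73.0, 75.3 and 74.3 with IA, at 69.8, 81.2 and 80.6 with MA, and at 92.5, 99.1 and 86.1 with MetSA. All libraries with an acid lay above M, IA overlapped MA, and MetSA lay above both. Slc16a3 rose by 0.45 with IA (log2, SE 0.07, adjusted p = 3.62e-05), 0.51 with MA (SE 0.07, adjusted p = 1.66e-05) and 0.77 with MetSA (SE 0.07, adjusted p = 1.06e-07).

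Among the other HIF-1 targets, Pdk1 encodes a kinase that holds pyruvate back from oxidation by inhibiting pyruvate dehydrogenase. Pdk1 stood at 85.5, 88.3 and 78.0 CPM in M, at 55.7, 63.4 and 55.8 with IA, at 57.8, 63.5 and 64.3 with MA, and at 83.0, 86.7 and 86.3 with MetSA. The IA and MA libraries lay below all of M, and MetSA overlapped M. Pdk1 fell by 0.53 with IA (log2, SE 0.07, adjusted p = 6.25e-06) and by 0.44 with MA (SE 0.07, adjusted p = 9.21e-05), and its change with MetSA was 0.02 (95% interval -0.12 to 0.17, adjusted p = 0.854).

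Vegfa, the vascular growth factor, and P4ha1, a collagen prolyl hydroxylase subunit, were higher with every acid. Vegfa stood at 70.1, 79.97 and 91.2 CPM in M, at 116, 143 and 139 with IA, at 107, 146 and 125 with MA, and at 128, 151 and 127 with MetSA. The acid libraries lay above M and overlapped each other. The log2 fold changes were 0.72, 0.65 and 0.75 (SE 0.13 each), with adjusted p of 0.000868, 0.00329 and 0.00113 for IA, MA and MetSA. P4ha1 stood at 95.8, 97.2 and 94.8 CPM in M, at 188, 217 and 183 with IA, at 133, 127 and 125 with MA, and at 171, 176 and 157 with MetSA. Its 4 groups did not overlap, in the order M, MA, MetSA, IA. P4ha1 rose by 1.03 with IA (SE 0.07, adjusted p = 5.75e-10), 0.42 with MA (SE 0.07, adjusted p = 0.000123) and 0.81 with MetSA (SE 0.07, adjusted p = 4.17e-08).

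P4ha2 encodes the related collagen hydroxylase subunit and was much lower. It was 6.55 ± 0.581 CPM in M, 6.76 ± 0.880 with IA, 8.34 ± 0.685 with MA and 8.95 ± 1.28 with MetSA. The log2 change was called with MetSA alone (0.45, SE 0.14, adjusted p = 0.0225), and that call was lost without M replicate 2, MetSA replicate 1 or MetSA replicate 3 (adjusted p from 0.0772 to 0.0987) and with total-count scaling.

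Egln1 and Egln3 encode prolyl hydroxylases that act on the HIF alpha subunits and are themselves HIF targets. Egln3 was low, at 1.57, 2.15 and 1.68 CPM in M, at 1.28, 1.31 and 1.56 with IA, at 3.24, 3.69 and 3.66 with MA, and at 2.43, 2.89 and 4.06 with MetSA. The IA libraries were the lowest, below all of M, and the MA and MetSA libraries lay above all of M. Egln3 rose by 0.97 with MA (log2, SE 0.21, adjusted p = 0.00269) and 0.79 with MetSA (SE 0.22, adjusted p = 0.0119), and its change with IA was -0.38 (95% interval -0.86 to 0.09, adjusted p = 0.206). The MetSA call was lost without M replicate 1 or MetSA replicate 3 (adjusted p from 0.0583 to 0.0843). Egln1 was 46.3 ± 3.60 CPM in M and fell to 39.4 ± 1.81 with IA (-0.23, SE 0.07, adjusted p = 0.0141), and was 47.2 ± 1.17 with MA and 46.4 ± 2.33 with MetSA. Its IA call was lost without M replicate 1 or IA replicate 3 (adjusted p from 0.0964 to 0.141).

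Ndrg1, a gene induced by hypoxia and by iron loss, was lower with every acid. It stood at 55.1, 53.2 and 63.0 CPM in M, at 26.3, 24.6 and 28.4 with IA, at 35.3, 32.6 and 40.1 with MA, and at 36.3, 37.0 and 46.4 with MetSA. No acid library reached the lowest M value, and IA was below the other acids. Ndrg1 fell by 1.11 with IA (log2, SE 0.10, adjusted p = 1.32e-07), 0.67 with MA (SE 0.10, adjusted p = 8.44e-05) and 0.52 with MetSA (SE 0.10, adjusted p = 0.000993).

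Ankrd37, a small ankyrin repeat gene, stood at 1.65, 2.17 and 2.41 CPM in M, at 0.958, 1.07 and 1.18 with IA, at 1.84, 1.5 and 1.83 with MA, and at 1.75, 1.90 and 2.05 with MetSA. The IA libraries lay below all others, and MA and MetSA overlapped M. It fell by 0.95 with IA (log2, SE 0.23, adjusted p = 0.003), and the changes with MA and MetSA were -0.27 (95% interval -0.73 to 0.20) and -0.13 (-0.59 to 0.33). Its counts ran from 45 to 126 a library, and 22.7% of its exon bases overlap Lrp2bp and 3.7% overlap Ufsp2 on the opposite strand.

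Ak4, a mitochondrial adenylate kinase, stood at 1.65, 1.74 and 2.56 CPM in M, at 2.02, 2.22 and 1.65 with IA, at 2.09, 1.71 and 1.60 with MA, and at 3.87, 3.06 and 3.71 with MetSA. MetSA lay above every other library and the other 3 groups overlapped. Ak4 rose by 0.84 with MetSA (log2, SE 0.22, adjusted p = 0.00867), a call lost without M replicate 1 (adjusted p = 0.0504), and its changes were -0.02 with IA (95% interval -0.48 to 0.45) and -0.14 with MA (-0.61 to 0.32). Mxi1, an antagonist of MYC, stood at 33.3, 35.3 and 35.2 CPM in M, at 29.7, 33.4 and 31.3 with IA, at 47.9, 44.9 and 42.8 with MA, and at 33.7, 36.6 and 32.5 with MetSA. MA alone lay above M, and IA and MetSA overlapped M. Mxi1 rose by 0.38 with MA (SE 0.07, adjusted p = 0.000581).

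Bnip3 and Bnip3l encode mitophagy receptors. Bnip3 was 15.8 ± 0.636 CPM in M, 16.3 ± 1.24 with IA and 18.1 ± 1.30 with MA, and rose to 20.8 ± 2.49 with MetSA (log2 0.39, SE 0.10, adjusted p = 0.006). Bnip3l was called with none of the acids, at 137 ± 4.96 CPM in M, 123 ± 6.33 with IA, 157 ± 7.71 with MA and 138 ± 16.6 with MetSA. Without MetSA replicate 3 it was called with IA (adjusted p = 0.0346) and, without MetSA replicate 1 or 3, with MA (adjusted p from 0.0174 to 0.0488), and 14.0% of its sequence is shared with other genes.

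Mif, a cytokine, and Kdm3a, a histone demethylase, were called with none of the acids. Mif stood at 44.9, 39.9 and 28.4 CPM with MetSA, against 31.0 ± 2.35 in M, 28.5 ± 2.48 with IA and 36.3 ± 2.09 with MA. MetSA replicate 3 lay just below the lowest M library and the other MetSA libraries above the highest, and without replicate 3 Mif was called with MetSA (adjusted p = 0.000711) and with MA (adjusted p = 0.0441). Mif shares 24.8% of its sequence with other genes. Kdm3a was 74.4 ± 1.85 CPM in M, 73.9 ± 0.697 with IA, 82.4 ± 0.453 with MA and 75.3 ± 4.90 with MetSA. Car12, a carbonic anhydrase, and Adm, the peptide adrenomedullin, had at most 12 and 16 counts in any library and were not tested.

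**Figure D3:**
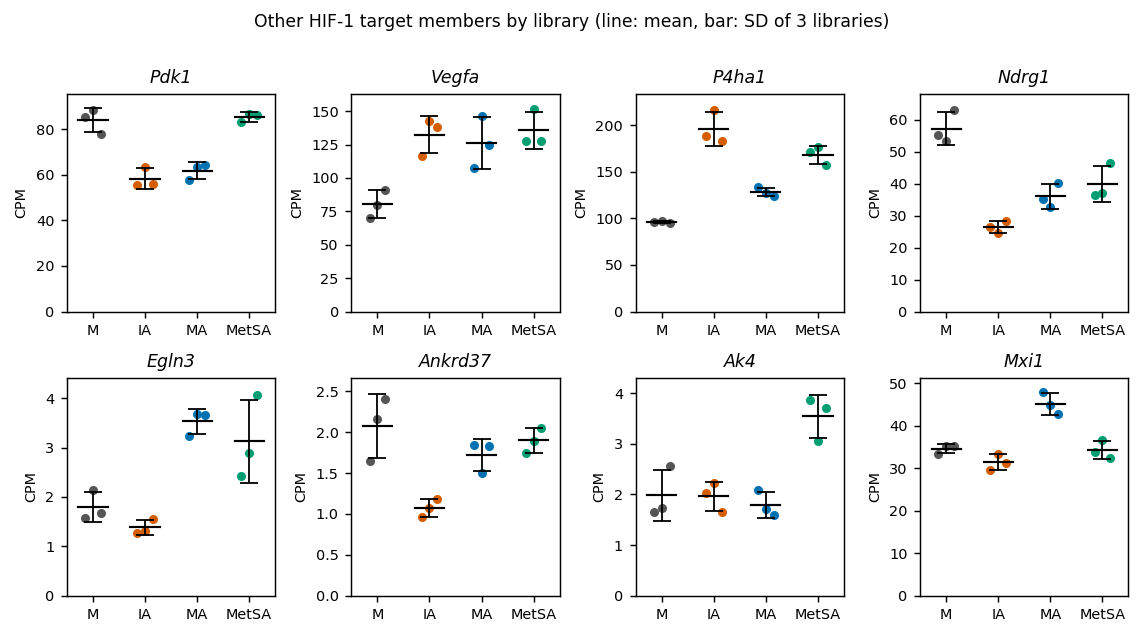
CPM (y axis, linear from 0) of 8 HIF-1 targets outside glycolysis in each of the 12 libraries by group (x axis), with the mean as a line and the SD as a bar. Pdk1 is low with IA and MA, Egln3 is high with MA and MetSA, Ak4 is high with MetSA alone, and every acid library of Ndrg1 lies below M.

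The 3 acids were also compared with each other, in 3 pairs at the same dose and time. Itaconic and methylsuccinic acid differ by the double bond. No tested gene of the set was higher with IA than with MetSA, and 10 of 31 were lower, where 6.12% of all genes were called (3.97% higher and 2.15% lower). The median log2 difference was -0.18 over the set and -0.02 over all genes. At an unadjusted p under 0.05, 3 were higher and 19 lower, and DESeq2 called 3 higher and 12 lower, RLE scaling 2 and 10, and total-count scaling 0 and 20. Without IA replicate 1 the lower count was 6, and without IA replicate 3 it was 5 with 1 gene higher. Among all genes 864 were called, and separate repeats called 426 without IA replicate 1, 567 without IA replicate 2, 420 without IA replicate 3 and 505 without MetSA replicate 3. The 10 lower genes were 4 glycolytic genes and 6 other targets, where total-count scaling gave 10 of each and the replicate block 7 glycolytic genes.

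Among the glycolytic genes lower with IA than with MetSA, Pfkl differed by -0.41 (log2, SE 0.06, adjusted p = 0.000699), Slc2a1 by -0.34 (SE 0.07, adjusted p = 0.00892), Slc16a3 by -0.32 (SE 0.07, adjusted p = 0.00892) and Eno1 by -0.25 (SE 0.06, adjusted p = 0.0274). The call was lost for Slc2a1 without IA replicate 1 (adjusted p = 0.0622), for Slc16a3 without IA replicate 3 or MetSA replicate 2 (0.0513 to 0.0555), and for Eno1 without IA replicates 1 or 3 or MetSA replicates 2 or 3 (0.0822 to 0.166). Without IA replicate 1, IA replicate 3 or MetSA replicate 2, 2 glycolytic genes were lower in place of 4. Hk2 was not called, with a difference of -0.14 (95% interval -0.28 to 0.01), nor was Pfkfb4, with 0.000932 (-0.15 to 0.15), or Pfkfb3, with 0.20 (0.07 to 0.34, adjusted p = 0.0628).

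Among the other targets, Egln3 was lower with IA than with MetSA by -1.18 (log2, SE 0.22, adjusted p = 0.00357), Ndrg1 by -0.60 (SE 0.10, adjusted p = 0.00219) and Pdk1 by -0.55 (SE 0.07, adjusted p = 0.000187). Their IA and MetSA libraries did not overlap. Ak4 differed by -0.85 (SE 0.22, adjusted p = 0.0256), Ankrd37 by -0.83 (SE 0.23, adjusted p = 0.0399) and Bnip3 by -0.35 (SE 0.10, adjusted p = 0.0365). Each of these last calls was lost without some library: Ak4 without IA replicates 1 or 3 or MetSA replicates 1 or 3 (adjusted p from 0.0634 to 0.124), Bnip3 without IA replicates 2 or 3 or MetSA replicate 3 (0.133 to 0.179), and Ankrd37 without M replicate 2, any IA replicate, MA replicates 1 or 3, or MetSA replicates 2 or 3 (0.0523 to 0.141). Without IA replicate 3, 3 other targets were lower in place of 6 and 1 was higher. Vegfa was not called, with a difference of -0.03 (95% interval -0.31 to 0.25), nor was P4ha1, with 0.22 (0.08 to 0.36, adjusted p = 0.0569), which was called without IA replicate 3 (adjusted p = 0.0479). Without MetSA replicate 3, Mif was lower with IA (adjusted p = 0.000981).

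Between itaconic and malonic acid, which differ in backbone length and in the double bond, the calls went in both directions. With IA, 6 of 31 were higher than with MA and 13 lower, where 34.6% of all genes were called (17.8% higher and 16.8% lower), and the median difference was -0.16 over the set and -0.03 over all genes. Total-count scaling gave 3 higher and 20 lower and moved the median of all genes to -0.19. The split between the 2 sets was 5 higher and 6 lower among glycolytic genes and 1 higher and 7 lower among other targets. Higher with IA were P4ha1 (log2 0.61, SE 0.07, adjusted p = 4.98e-07), Pfkfb3 (0.50, SE 0.06, adjusted p = 3.18e-06), Pfkfb4 (0.48, SE 0.07, adjusted p = 1.95e-05), Hk1 (0.24), Pfkp (0.23) and Pkm (0.16). Lower with IA were Egln3 (-1.35, SE 0.22, adjusted p = 6.83e-05), Ankrd37 (-0.69), Slc2a1 (-0.67, SE 0.07, adjusted p = 4.7e-07), Mxi1 (-0.52), Ndrg1 (-0.45), Hk2 (-0.44) and Eno1 (-0.42), and with smaller differences Pgam1 (-0.37), Bnip3l (-0.36), Egln1 (-0.26), Pfkl (-0.23), Aldoa (-0.16) and Kdm3a (-0.16).

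Without MetSA replicate 1 or MetSA replicate 3, 15 genes were lower with IA, with Mif (adjusted p from 0.00167 to 0.0175) and Gpi1 (0.0231 to 0.0494) added. Some of the calls rested on few libraries. Egln1 was lost without IA replicate 3 (adjusted p = 0.0556). Ankrd37 was lost without IA replicates 1 or 2 or MA replicates 1 or 3 (0.0637 to 0.0896), and Pkm without IA replicates 1 or 2 or MA replicates 2 or 3 (0.0769 to 0.105). Aldoa was lost without IA replicates 1 or 3, any MA replicate or MetSA replicate 2 (0.0581 to 0.18), and Kdm3a without M replicates 1 or 2, any IA or MA replicate, or MetSA replicate 2 (0.0505 to 0.121). Total-count scaling ended the calls of Hk1, Pfkp and Pkm. Pdk1 and Slc16a3 were not called between IA and MA, with differences of -0.09 (95% interval -0.23 to 0.06) and -0.06 (-0.20 to 0.09), and Vegfa differed by 0.07 (-0.21 to 0.35).

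Between malonic and methylsuccinic acid, 3 genes of 31 were higher with MA and 10 lower, where 26.4% of all genes were called (11.6% higher and 14.7% lower), with medians of -0.10 and 0.0066. Higher with MA were Mxi1 (log2 0.40, SE 0.07, adjusted p = 0.000251), Slc2a1 (0.33, SE 0.07, adjusted p = 0.00173) and Hk2 (0.30, SE 0.07, adjusted p = 0.00309). Lower with MA were 7 glycolytic genes, Pfkfb4 (-0.48), Pfkfb3 (-0.30), Tpi1 (-0.28), Pgk1 (-0.27), Slc16a3 (-0.26), Ldha (-0.23) and Pfkl (-0.17). The other targets lower with MA were Ak4 (-0.98, SE 0.22, adjusted p = 0.00188), Pdk1 (-0.46, SE 0.07, adjusted p = 3.01e-05) and P4ha1 (-0.39, SE 0.07, adjusted p = 0.00015). Egln3 was not called, with a difference of 0.17 (95% interval -0.26 to 0.61), nor was Ndrg1, with -0.15 (-0.36 to 0.06).

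Without MetSA replicate 3, 6 genes were higher with MA, 4 glycolytic genes and 2 other targets, with Pgam1, Eno1 and Bnip3l added, and upper-quartile scaling gave 7 higher and 9 lower and total-count scaling 7 and 8. The Slc16a3 call was lost without MA replicate 1 or MetSA replicate 2 (adjusted p from 0.0558 to 0.0602), and that of Pfkl without IA replicate 3, any MA replicate or any MetSA replicate (0.058 to 0.11). Total-count scaling ended both calls.

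**Figure D4:**
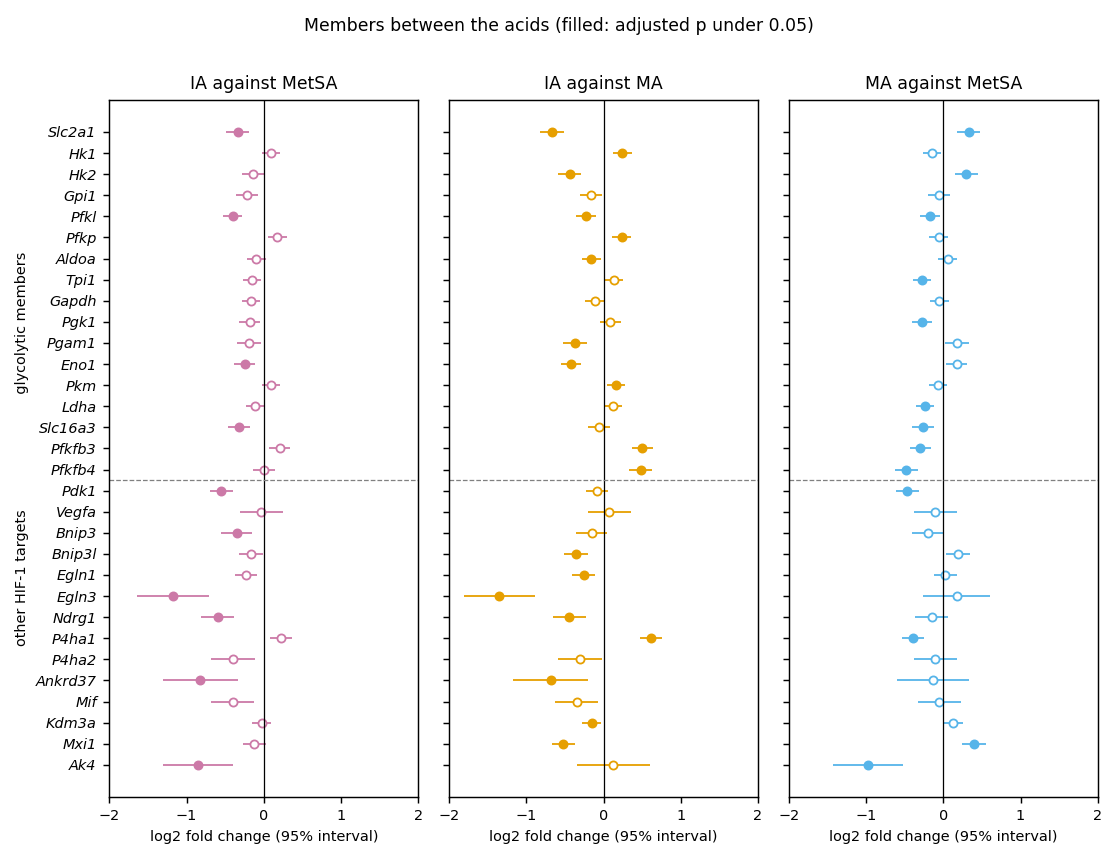
Log2 differences between the acids (x axis) for the 31 tested genes (y axis), with 95% intervals from the edgeR fit and filled points for adjusted p under 0.05. In the panel of IA against MetSA all 10 filled points lie left of 0, and Egln3 lies near -1.18 there and near -1.35 in the panel of IA against MA.

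Transcripts of HIF-1 itself and of its regulators were read from a list of 19 genes, 17 of them tested. Hif1a stood at 139, 156 and 137 CPM in M, at 284, 299 and 275 with IA, at 308, 317 and 302 with MA, and at 243, 261 and 286 with MetSA. Every acid library lay above M. Hif1a rose by 0.99 with IA (log2, SE 0.07, adjusted p = 1.15e-09), 1.10 with MA (SE 0.07, adjusted p = 4.47e-10) and 0.87 with MetSA (SE 0.07, adjusted p = 1.83e-08), and MA was above MetSA by 0.23 (adjusted p = 0.0145). These values are of RNA, while the known oxygen control acts on the protein. Arnt, the partner subunit, was called in none of these comparisons with M, with 95% intervals of -0.07 to 0.19 with IA, -0.14 to 0.12 with MA and -0.13 to 0.13 with MetSA.

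Epas1 encodes the alpha subunit of HIF-2 and differed in direction between the acids. It stood at 8.86, 8.04 and 6.84 CPM in M, at 5.15, 4.64 and 3.50 with IA, at 12.7, 11.0 and 11.7 with MA, and at 5.97, 4.94 and 5.39 with MetSA. The MA libraries lay above M and the IA and MetSA libraries below it. Epas1 fell by 0.84 with IA (log2, SE 0.15, adjusted p = 0.000163) and by 0.54 with MetSA (SE 0.14, adjusted p = 0.0103), and rose by 0.57 with MA (SE 0.14, adjusted p = 0.00566). The MetSA call was lost without M replicate 1 or MetSA replicate 2 (adjusted p from 0.0513 to 0.0628).

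Vhl, which encodes the von Hippel-Lindau protein, stood at 28.1, 29.6 and 29.6 CPM in M, at 31.5, 34.1 and 34.7 with IA, at 59.0, 53.9 and 60.7 with MA, and at 28.1, 32.9 and 36.1 with MetSA. The MA libraries lay above all others. Vhl rose by 0.99 with MA (log2, SE 0.08, adjusted p = 2.97e-08), and was 0.20 with IA (95% interval 0.02 to 0.37, adjusted p = 0.0712) and 0.15 with MetSA (-0.02 to 0.33). Cited2, a competitor of HIF for its coactivators, fell by 0.76 with MA (SE 0.08, adjusted p = 7.24e-07), from 145 ± 7.82 to 85.9 ± 7.49 CPM. Ep300, a coactivator, rose with IA (0.44, SE 0.12, adjusted p = 0.0126), a call lost without M replicate 3 (adjusted p = 0.0526) or with total-count scaling (adjusted p = 0.089). Egln2 and Hif1an, the other hydroxylases of the pathway, were not called with any acid, with means of 50.9 to 54.9 CPM and 50.8 to 55.8 CPM. Over the 17 genes, 3 were higher and 1 lower with IA, 3 and 2 with MA, and 1 and 1 with MetSA, with medians of 0.05, 0.02 and 0.02. Beside these and the list counts that follow, 35.2% of all genes were called with IA, 20.3% with MA and 21.2% with MetSA. Total-count scaling gave 1 higher and 7 lower with IA and 4 lower with MetSA, and upper-quartile scaling 2 lower with IA. Leaving out 1 library moved these counts. With IA, 5 were higher and 2 lower without MetSA replicate 3, and 2 were lower without MetSA replicate 1. The higher count with IA was 2 without M replicates 1, 2 or 3, IA replicates 1 or 2, or MA replicates 1 or 3. With MA, 1 was lower without MA replicate 2. With MetSA, 0 were lower without M replicate 1 or MetSA replicate 2. The higher count with MetSA was 2 without MetSA replicate 1 and 3 without MetSA replicate 3.

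**Figure D5:**
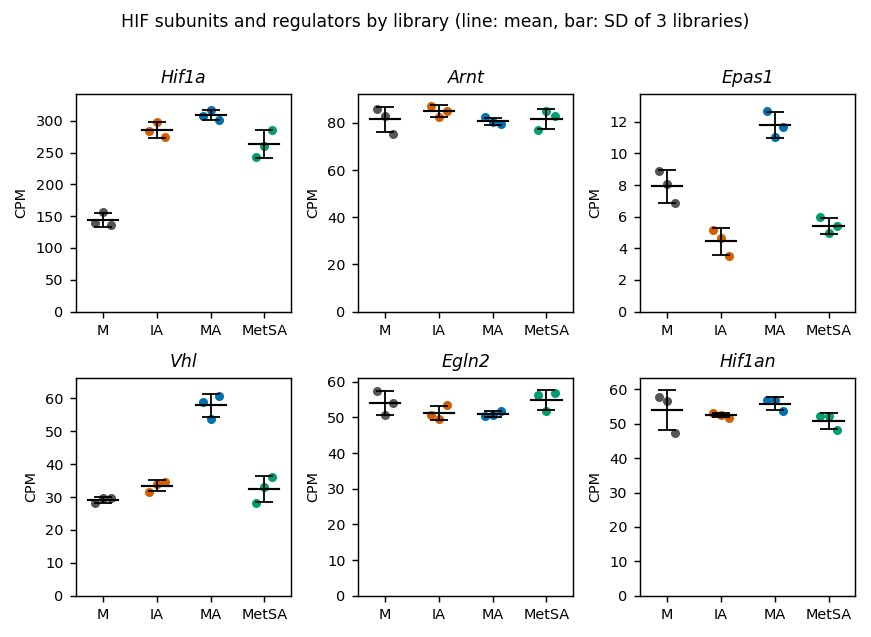
CPM (y axis, linear from 0) of Hif1a, Arnt, Epas1, Vhl, Egln2 and Hif1an in each of the 12 libraries by group (x axis), with the mean as a line and the SD as a bar. Hif1a is above M with all 3 acids, Vhl is high with MA alone, and Epas1 is above M with MA and below it with IA and MetSA.

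A further 33 known HIF-1 targets outside the 33 genes, 32 of them tested, held calls in both directions, and the count of lower genes depended on the scaling. With IA, 9 were higher and 6 lower, with MA 9 and 2, and with MetSA 8 and 3, with medians of -0.02, 0.09 and 0.03. Total-count scaling gave 13 lower with IA, and upper-quartile and total-count scaling each 6 lower with MetSA. The count lower with MA was 1 without any of the M, IA or MA replicates or MetSA replicate 2. Nampt, the enzyme of NAD salvage, rose by 1.29 with IA (log2, SE 0.06, adjusted p = 1.18e-11), 0.42 with MA (SE 0.06, adjusted p = 5.65e-05) and 0.97 with MetSA (SE 0.06, adjusted p = 1.74e-09). Gpr35, a receptor that is low in M at 3.90 ± 0.690 CPM, reached 16.7 ± 1.09 CPM with IA, 11.8 ± 1.14 with MA and 10.5 ± 0.676 with MetSA, rises of 2.09, 1.59 and 1.43 (SE 0.13 each, adjusted p = 2.1e-10, 1.69e-08 and 1.1e-07). Cxcr4, a chemokine receptor, stood at 197 ± 10.4 CPM in M, 245 ± 12.7 with IA, 611 ± 21.9 with MA and 207 ± 14.8 with MetSA. Cxcr4 rose by 1.63 with MA (SE 0.07, adjusted p = 1.29e-12) and 0.31 with IA (SE 0.06, adjusted p = 0.000798), and the IA call was lost with total-count scaling (adjusted p = 0.132). Its change with MetSA was 0.07 (95% interval -0.06 to 0.21).

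Bhlhe41, a repressor of transcription, rose with MA alone, by 0.87 (log2, SE 0.07, adjusted p = 2.94e-08), and was -0.03 with IA (95% interval -0.18 to 0.13) and -0.20 with MetSA (-0.35 to -0.05, adjusted p = 0.0597), where it was called lower without MA replicate 2 (adjusted p = 0.0497). Mafk, a small MAF protein, rose with IA by 1.04 (SE 0.10, adjusted p = 6.06e-07) and with MetSA by 0.51 (SE 0.10, adjusted p = 0.00176), and was -0.03 with MA (95% interval -0.25 to 0.19). Ddit4, an inhibitor of mTOR signalling, rose with MetSA by 0.96 (SE 0.20, adjusted p = 0.00189) from 1.98 ± 0.190 CPM.

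The lower genes of this list are shown by 3 of them, and Nos2 with them, all chosen after their values were seen. Bhlhe40, a repressor related to Bhlhe41, stood at 7.85, 6.85 and 7.32 CPM in M, at 3.94, 3.43 and 2.59 with IA, at 17.5, 15.2 and 15.7 with MA, and at 5.19, 4.07 and 4.94 with MetSA. The MA libraries lay above M and the IA and MetSA libraries below it. Bhlhe40 fell by 1.14 with IA (log2, SE 0.15, adjusted p = 4.51e-06) and by 0.63 with MetSA (SE 0.14, adjusted p = 0.00293), and rose by 1.14 with MA (SE 0.14, adjusted p = 3.87e-06). Fam162a, a mitochondrial protein, fell by 0.87 with IA (SE 0.14, adjusted p = 7.36e-05), and its -0.33 with MetSA (adjusted p = 0.0997) was called with upper-quartile or total-count scaling (adjusted p from 0.0204 to 0.0483). Hmox1, the heme-degrading oxygenase, fell by 0.72 with IA (SE 0.09, adjusted p = 4.82e-06) and by 0.41 with MetSA (SE 0.09, adjusted p = 0.00239). Nos2, the inducible nitric oxide synthase, was at 0.0201, 0 and 0 CPM in M, at 0.596, 1.27 and 0.675 with IA, at 0, 0.0380 and 0 with MA, and at 0.329, 0.0395 and 0.156 with MetSA, with at most 64 counts in a library. It was called higher with IA (adjusted p = 4.46e-05) and with MetSA (adjusted p = 0.0132), the latter call being lost without M replicate 2 or MetSA replicate 1 (adjusted p from 0.058 to 0.0801), and no fold is given because M held fewer than 3 counts in every library.

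Other isoforms of glycolysis and lactate transport were read from 26 genes, 21 of them tested: 5 were higher and 6 lower with IA, 3 and 2 with MA, and 4 and 1 with MetSA, with medians of -0.19, 0.11 and -0.06. Upper-quartile and total-count scaling each gave 3 higher with IA, and with MetSA 4 and 6 lower. Ldhb, the lactate dehydrogenase subunit of oxidative tissues, stood at 7.51, 7.67 and 7.32 CPM in M, at 4.92, 6.70 and 5.25 with IA, at 26.2, 28.3 and 36.3 with MA, and at 5.48, 7.02 and 9.09 with MetSA. The MA libraries lay far above all others. Ldhb rose by 2.01 with MA (log2, SE 0.17, adjusted p = 2.11e-07), where Ldha was -0.07 (95% interval -0.19 to 0.05). Hk3, the hexokinase of myeloid cells, was 169 ± 5.76 CPM in M, rose to 249 ± 13.1 with IA (0.56, SE 0.07, adjusted p = 3.01e-06) and fell to 142 ± 10.04 with MA (-0.26, SE 0.07, adjusted p = 0.0116). The MA call of Hk3 was lost without MA replicate 2 (adjusted p = 0.0844).

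Slc2a6, a hexose transporter of activated macrophages, rose by 0.73 with IA (log2, SE 0.10, adjusted p = 4.1e-05) and 0.77 with MetSA (SE 0.10, adjusted p = 4.28e-05), and was 0.22 with MA (95% interval -0.00091 to 0.44), where it was called without M replicate 3 (adjusted p = 0.0147). Slc16a1, the transporter MCT1, fell by 0.72 with IA (SE 0.11, adjusted p = 4.73e-05) and by 0.57 with MetSA (SE 0.11, adjusted p = 0.000884), where Slc16a3 rose. Gpd2, of the glycerol phosphate shuttle, rose by 0.42 with IA (SE 0.07, adjusted p = 6.81e-05) and 0.36 with MetSA (SE 0.07, adjusted p = 0.000606). Among these 21 genes, the count lower with IA was 2 without M replicate 1 or IA replicate 3 and 3 without M replicate 2 or IA replicate 1, and the count higher with IA was 3 without M replicate 1. With MA, the higher count was 1 without M replicate 2 and the lower count 1 without MA replicate 2. The count lower with MetSA was 2 without M replicate 2 or MetSA replicate 2 and 3 without MetSA replicate 3.

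Of the 12 tested genes of pyruvate oxidation, 2 were higher and 2 lower with IA, 2 and 1 with MA, and 1 and 0 with MetSA, with medians of -0.03, 0.04 and 0.03. For the 0 with MetSA, DESeq2 also called 0 lower, and 2 were lower by edgeR at an unadjusted p under 0.05. Upper-quartile scaling gave 2 lower with MetSA and total-count scaling 3. With IA, both gave 1 higher, and total-count scaling gave 5 lower. Pdk3, a kinase of the same family as Pdk1, rose with MetSA by 0.52 (log2, SE 0.12, adjusted p = 0.00443), and Mpc1, a subunit of the mitochondrial pyruvate carrier, rose with MA by 0.59 (SE 0.12, adjusted p = 0.00108). Pcx, pyruvate carboxylase, fell by 1.06 with IA (SE 0.23, adjusted p = 0.00138) and by 0.79 with MA (SE 0.23, adjusted p = 0.0176), the MA call being lost without M replicate 1, MA replicate 1 or MA replicate 3 (adjusted p from 0.053 to 0.0984). With IA the higher count was 1 without any M replicate or IA replicate 2, and the lower count 1 without any M or IA replicate. The higher count with MA was 1 without M replicate 3, MA replicate 1 or MA replicate 3, and the lower count 0 without M replicate 1, MA replicate 1 or MA replicate 3. With MetSA the higher count was 2 without M replicate 2 or MetSA replicate 3, and the lower count 1 without MetSA replicate 3.

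Of the 15 tested genes of gluconeogenesis and glycogen, 7 were higher and 0 lower with MA, 3 and 2 with IA, and 3 and 1 with MetSA, with medians of 0.18, -0.04 and 0.08. With MA, DESeq2 called 8 higher and 0 lower, and at an unadjusted p under 0.05 edgeR had 8 higher and 2 lower. The count lower with MA was 1 with total-count scaling or halved counts. Total-count scaling gave 1 higher and 8 lower with IA and 1 and 3 with MetSA, and upper-quartile scaling 5 lower with IA and 2 with MetSA. Pgm2l1, a phosphoglucomutase-like enzyme, rose with MA by 0.86 (log2, SE 0.10, adjusted p = 9.01e-06), Ppp1r3b, a glycogen-targeting subunit of a phosphatase, by 0.78 (SE 0.13, adjusted p = 0.000165), and Ugp2, which makes UDP-glucose, by 0.47 (SE 0.07, adjusted p = 4.03e-05). Gyg, which primes glycogen, rose with IA by 0.59 (SE 0.07, adjusted p = 1.13e-06), and Pgm1, a phosphoglucomutase, rose by 0.36 with IA (SE 0.07, adjusted p = 0.000572) and 0.41 with MetSA (SE 0.07, adjusted p = 0.000324). The IA call of Pgm1 was lost with total-count scaling (adjusted p = 0.0576). The count lower with MA was 1 without M replicate 3, and that with MetSA was 2 without M replicates 2 or 3 and 3 without MetSA replicate 3.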

How the data were processed

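Poly(A) RNA was sequenced from 12 libraries, 3 in each of 4 groups, and titles gave each sample's group and number. The deposited file holds raw counts of reads per gene, made by the authors with STAR and featureCounts on mm10, per the submitters' processing notes. For tool versions, annotation and strand, the sources used here give nothing. Of counts from 1 to 9, 66.1% were even, against 50.9% of counts of 1000 or more, so a repeat with halved counts was run. All 12 value columns were matched to samples, and 32158 of 32285 genes had a symbol. The symbol Ero1a was matched through a RefSeq synonym.

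From the counts, genes were kept by filterByExpr, libraries scaled by TMM, and edgeR's quasi-likelihood test (glmQLFit robust, glmQLFTest) was run in 1 model of the 4 groups (residual df 8), in 6 comparisons, each Benjamini-Hochberg adjusted over its 14113 genes. The scripts were tested on simulated data. Errors after ± are SDs of 3 libraries, and intervals are 95%. The software was DESeq2 1.42.0, edgeR 4.0.16 and limma 3.58.1 under R 4.3.3. Lengths, overlaps and shared 100-base stretches came from GENCODE M21 transcripts, with 10% or more shared called uncertain.

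The 33 genes, the lists (HIF subunits and regulators, other HIF-1 targets, other glycolysis and lactate genes, pyruvate oxidation, gluconeogenesis and glycogen, and markers of 6 cell types) and the tests were chosen with earlier results of these data known. Full values were given for genes called with a log2 change of 0.5 or more in size, and from each list for up to 4 genes with the smallest adjusted p against M, plus Hif1a, Epas1, Arnt, Vhl, Egln2 and Hif1an. Bhlhe40, Fam162a, Hmox1 and Nos2 were added after their values were seen. Some listed genes that this rule takes are not reported here. Alternatives were DESeq2, RLE, upper-quartile and total-count scaling, no filter, a filter of 5 CPM in 3 libraries, 2 groups only, halved counts, a replicate block, and leaving out each library. Same-numbered libraries of different groups correlated at 0.0122 to 0.169 after removal of group means, with 2 of 18 pairs over 0.1. Differently numbered libraries correlated at -0.113 to 0.0233. The main fit did not treat same-numbered libraries as pairs, because no label says what a shared number marks. Precision is limited by 3 libraries a group.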

Additional observations from a re-analysis of the deposited data

Results flagged for a closer look

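For 4 genes the acids moved RNA in opposite directions from medium, and the direct comparison of the acids was itself called by edgeR's quasi-likelihood test. Slc2a1 was lower with IA and higher with MA, a log2 difference of -0.67 between IA and MA. Epas1 was lower with IA and MetSA and higher with MA, a difference of -1.41 between IA and MA and 1.12 between MA and MetSA. Bhlhe40, chosen after its values were seen, was lower with IA and MetSA and higher with MA, a difference of -2.28 between IA and MA and 1.77 between MA and MetSA. Hk3 was higher with IA and lower with MA, a difference of 0.81. The calls against medium that rest on 1 library are named with these genes in the report.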

How the results depend on the processing

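Counts over the 31 genes and over all genes tested kept within 1.5 times their value under the alternatives except as follows. Total-count scaling gave 7 glycolytic genes and 8 other targets lower with IA than in M (2 and 4 as reported), and the other lists' counts against M under the scalings stand in the report. With total-count scaling, 15 of the 31 genes were lower with IA than in M (6 as reported), 20 were lower with IA than with MetSA (10), 3 were higher and 20 lower with IA than with MA (6 and 13), and 7 were higher with MA than with MetSA (3). Upper-quartile scaling also gave 7 there and the stricter filter 5. For genes higher with IA than with MetSA, reported as 0, DESeq2 gave 3, RLE scaling 2, no filter 1 and the stricter filter 2. Genes called among all genes between IA and MetSA, 864 as reported, were 1348 with DESeq2, 1483 with no filter and 575 with only the 2 groups in the fit. Upper-quartile scaling turned the share of higher genes among all calls from 50.9% to 34.8% for IA against M, from 59.7% to 42.2% for MetSA against M, from 64.8% to 54.2% for IA against MetSA, from 51.5% to 37.5% for IA against MA and from 44.1% to 54.5% for MA against MetSA, and total counts to 21.6%, 29.5%, 29.7%, 25.7% and 61.1%. Against M with IA, total counts turned the sign of the log2 changes of Cul2, Bsg and Dld, which became small (-0.00643, -0.0413 and -0.0179). The cause of these moves was not tested.

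Leaving out each library gave 420 to 974 genes called between IA and MetSA, 5 to 11 of the 31 genes lower and 0 to 1 higher there, 3 to 6 higher with MA than with MetSA, and 1 to 2 lower with MetSA than in M. With the replicate block, 1413 genes were called between IA and MetSA, 2 of the 31 were higher there, and 6 were higher with MA than with MetSA. The replicate numbers are not shown to pair the samples, but each of the 12 libraries correlated best on average with its own number, as a hint from the data. Low genes such as Egln3, Ak4 and Ankrd37, with 45 to 208 counts a library, carry the widest intervals.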
